A study of Mus musculus with 2 samples.

Results

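Of the 12016007 distinct small RNA sequences in the 2 deposited tables, 7750 were 24 to 32 nt long, began with A or C, carried A at base 10 and had at least 50 reads summed over both tables. They were chosen by their length, their bases 1 and 10 and their summed read count, so these properties describe the choice and are not findings. Of the 7750, 3974 began with A and 3776 with C, and they made up 4.31% of the 179883 sequences of that length with at least 50 reads. The tables come from total RNA of 23 dpp testes of C57BL/6 mice, made into directional libraries of gel-cut small RNA. According to the labels 1 sample was Stambp-ps1+/- and the other Stambp-ps1-/-, where Stambp-ps1 is a pseudogene of the deubiquitinase gene Stambp. The labels do not say how the allele was made or how many animals gave RNA. Both tables are recorded under the Stambp-ps1-/- sample, while 1 table carries the word KO in its name and the other the word het. They are called the KO-named and het-named table here, and neither was put in a genotype group. With 1 library per table there was no replicate and no test between the tables, and every difference between them below is a difference between 2 libraries.

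piRNAs are the small RNAs of the animal germ line that guide PIWI proteins to complementary transcripts, and in the mouse testis they act against transposons before birth and come mostly from long noncoding precursors at the pachytene stage of meiosis. Most piRNAs begin with U, written T in the deposited sequences. In the ping-pong cycle a PIWI protein loaded with a U-start piRNA cuts a complementary transcript after the tenth base of its guide, counted from the guide's start, and the cut makes the 5′ end of a secondary piRNA. The secondary piRNA then overlaps its guide by 10 nt from 5′ end to 5′ end and carries A at base 10, opposite the guide's first base, whatever its own first base is. An A- or C-start sequence with A at base 10 therefore has the letters of a secondary piRNA, but A is also found there by base composition alone.

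Pairs of a member with 1 place in the annotated transcripts and a T-start sequence opposite it show what a 10-nt overlap looks like in these tables. The first 10 bases are in capitals, and those of the T-start partner are the reverse complement of those of the member. These were among the members with 1 place and most partner reads, and each partner shown is the one with most reads.

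Gm21269 member of 31 nt: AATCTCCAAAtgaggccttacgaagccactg
Its T-start partner: TTTGGAGATTgaatttttgaaaaagcct
Gm21269 member of 29 nt: ACACATCGCAggcctgagtggaaagcttt
Its T-start partner: TGCGATGTGTtcagacctaaaaagagtt
Gm10505 member of 24 nt: CTGGATCTTActttgccgctggcc
Its T-start partner: TAAGATCCAGgaaaagataaaaacttgc
Gm47652 member of 28 nt: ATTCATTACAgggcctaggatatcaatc
Its T-start partner: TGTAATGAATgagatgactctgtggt
Gm2163 member of 28 nt: CCTGCAAGAAaaaggatatgtctaagcc
Its T-start partner: TTCTTGCAGGtaccttgagaactcaag

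The first pair lies in the noncoding gene Gm21269 (ENSMUSG00000108448.2), where the member runs antisense to an exon at chr7:73817199-73817229 on the minus strand of GRCm38. The member had 61 KO-named and 70 het-named reads, and its partner had 15412 and 17560. The partner thus had 252 times the reads of the member, and neither moved between the tables by more than 0.02 on the log2 scale. The second Gm21269 member, at chr7:73817545-73817573 on the same strand, had 37 and 46 reads beside 450 and 464 of its partner. In the noncoding gene Gm10505 the member, antisense at chr17:27325722-27325745, had 35 and 29 reads and its partner 2342 and 2303. The Gm47652 member, antisense at chr9:37334115-37334142, was more abundant, with 123 and 116 reads beside 1923 and 1745. The Gm2163 member lay sense in a 5′ UTR at chr4:42467022-42467049, with 73 and 70 reads beside 313 and 248 of its partner. The partner of the Gm2163 member had 7 places and that of the Gm47652 member 3, so their reads cannot be assigned to the place opposite the member alone. These pairs were picked for their many partner reads, so the high T-start counts follow from the choice. Over all 178 members with 1 place and a 10-nt partner, the partners together had more reads than the member for 55, or 30.9%.

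Most members were of moderate abundance and a few held much of the total. The median member had 107 reads, 46.4% had under 100, and 460 had at least 1000. The 100 members with most reads held 40.8% of all reads of the members. Just inside the read minimum 648 sequences had 50 to 54 reads, and just outside it 777 sequences with the same bases and length had 45 to 49. The KO-named table held 179871 of the 179883 sequences of 24 to 32 nt with at least 50 reads, and the het-named one 179883. All 7750 members were likewise found in both tables, which does not set the members apart. They took 1290544 of the 54384974 reads of the KO-named table and 1929341 of the 62773871 reads of the het-named table. This was 23730 reads per 1000000 reads of the table (RPM) against 30735, a ratio (always KO-named over het-named) of 0.772 with an exact 95% interval of 0.770 to 0.774. All intervals here cover counting error only, because without molecular identifiers PCR copies of 1 molecule are counted as separate reads. A count of 3 reads equals 0.0552 RPM for the KO-named table and 0.0478 RPM for the het-named one.

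Many members were length forms of the same 5′ end. The 7750 sequences had 3334 distinct first 20 bases, of which 1846 came with 1 form and 313 with more than 5, and 76.2% of the members shared their first 20 bases with another member. Such forms share a source and are not independent of each other. The commonest start, a C-start with no annotated place, came in 46 forms of 24 to 32 nt and held 14.4% of the reads of the members. It had 146969 KO-named and 315615 het-named reads, a ratio of 0.537 (0.534 to 0.541). Without it the ratio of the remaining members was 0.818 (0.816 to 0.820).

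The lengths peaked at 30 nt, with 1398 members. The median member was 29 nt long, 54.8% were of 29 to 32 nt, 34.5% of 26 to 28 nt and 10.7% of 24 or 25 nt. In mouse testis, piRNAs near 30 nt are typical of the PIWI protein MIWI and shorter ones of MILI and MIWI2, as background. The 147945 T-start sequences with at least 50 reads had the same median length and 8.85% of 24 or 25 nt. The 14180 A- or C-start sequences without A at base 10 were shorter, with a median of 28 nt and 17.3% of 24 or 25 nt. The members thus lay between these sets, nearer to the T-start sequences. Of pseudogene members 77.5% and of protein-coding antisense members 68.9% were of 29 to 32 nt, against 38.6% of the rRNA members and 37.0% of those in miRNA genes.

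A at base 10 was more common in sequences that began with A or C than at the bases beside it. Of all A- or C-start sequences with at least 50 reads, 35.3% had A at base 10, against 23.2% at base 9 and 26.8% at base 11. The share was 38.3% among A-starts and 32.7% among C-starts. The other bases from 2 to 24 had a median share of 26.4%, and base 5, with 36.0%, was higher than base 10. Among T-start sequences the share at base 10 was 29.9%, with 27.1% at base 9, and among G-starts it was 29.7%. With each shared start of 20 bases counted once, the share was 37.0% for A- or C-starts and 29.6% for T-starts, and for the former bases 2 (38.7%) and 5 (39.4%) were higher than base 10. Among distinct C-start sequences, too, bases 2 (36.3%) and 5 (33.2%) were higher than base 10. These shares describe distinct sequences of 2 pooled tables, and the difference between starts was not tested.

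An exact match to the transcripts of GENCODE M21 gave 1909 members, or 24.6%, an annotated place. The other 5841 had none, and their share of the reads of the members was 84.1% (KO-named) and 87.2% (het-named). A genome sequence and an annotation of repeats were not used here, so members from introns, intergenic clusters and most transposon copies would be among them. Fragments of any RNA missing from these transcripts would be among them too, and the only tRNA genes in the classes used were mitochondrial. All 10 members with most reads were without a place, and they came from 4 starts. Placement was more frequent than among the A- or C-start sequences without A at base 10, at 16.9%, and the T-start sequences, at 17.0%. With 1 place alone the groups were similar, at 1114 of 7750 members, 1973 of 14180 other A- or C-starts and 20853 of 147945 T-starts. The excess thus lay in members with several places. Of the 1909, 1114 had 1 place, 492 had 2 to 10, 237 had 11 to 100 and 66 had over 100, with up to 963.

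By the class order used, protein-coding sense was the largest annotated class. Of the placed members 724 ran sense to protein-coding genes, 151 antisense to them, 543 lay in long noncoding RNA genes, 207 in rRNA genes, 92 in miRNA genes, 71 in pseudogenes, 53 in other small RNA genes, 7 in mitochondrial tRNA genes and 61 in other annotated genes. Each member was given 1 class, with the small RNA classes first and protein-coding genes before long noncoding RNA genes. Of the 724 protein-coding sense members, 193 had over 10 places. Among members with 1 place alone, long noncoding RNA led with 491, and 237 ran sense to protein-coding genes. Among the protein-coding sense members 542 lay in a 3′ UTR in at least 1 transcript, 120 in a 5′ UTR and 116 in coding sequence. One of them is printed in the 3′ UTR of Zfp280b, a zinc finger gene, with bases 1 and 10 in capitals, at chr10:76040905-76040934.

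Zfp280b member of 30 nt: AgctgtaatAagaacttgcccaataatact

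It had 147 KO-named and 190 het-named reads, and its most abundant T-start partner at that place had 358 and 372. The tables were within counting error of each other for this member, with a ratio of 0.893 (0.715 to 1.11).

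Among single genes, the entry CT010467.1 on chromosome 17 led with 203 members, all of 1 place and all antisense to the entry. The overlapping entry Gm42418 held 147 of them in sense, and AY036118 held 129 in antisense, so the 3 entries count the same reads. D10Wsu102e on chromosome 10 had 109 antisense and 96 sense members, with a median of 6 places for the antisense members and 5.5 for the sense ones. Slc38a6, an amino acid transporter gene, and Noct, the gene of the phosphatase nocturnin, held 72 sense members and 61 antisense members in that order. On both strands together they shared 68 members, which is 65.4% of all members of Slc38a6 and 79.1% of those of Noct. None of the members of these 2 genes had 1 place alone. On chromosome 4 the entries Gm17167, Gm2163, Gm10600, Gm10593, Gm3892 and Gm5859 had 77 to 99 sense members each, with a median of 12 places. Gm10593 and Gm3892 held the same 92 members, and Gm17167 shared 96 with Gm2163. Lars2, the mitochondrial leucyl-tRNA synthetase gene, had 107 sense members from 23 starts. The long noncoding RNA Gm49794 had 99 sense members, 73 of them of 1 place, and 1700001L05Rik had 41, all sense and of 1 place.

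Members of 6 classes, each among the 2 with most reads in its class, are shown with bases 1 and 10 in capitals, to give the letters that define the set in known RNAs. The most abundant protein-coding sense members, in the 3′ UTR of Grtp1, had 3425 and 3537 KO-named and 4214 and 3845 het-named reads. The most abundant antisense one, in the 3′ UTR of Elfn2, had 419 and 424. None of these is printed.

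1700001L05Rik member: CtcagaactAgtgtatatttggccaaaag
Gm49794 member: AaggaagacActctgagtctatggcagtg
Gm48368 member: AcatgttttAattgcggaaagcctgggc
D10Wsu102e member: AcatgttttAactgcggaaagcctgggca
CT010467.1 member: AcggaccagAgcgaaagcatttgcc
mt-Rnr2 member: ActaatcctAgccctagccctaca
mt-Tm member: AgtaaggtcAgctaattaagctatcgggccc
Snord2 member: CtgaaatgaAgagaatactcttgctgatc

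The 1700001L05Rik sequence, at chr15:83354368-83354396 on the minus strand, had 5081 KO-named and 5085 het-named reads, a ratio of 1.15 (1.11 to 1.20). None of the 41 members of this gene had a T-start partner at its place. The Gm49794 sequence, at chr17:27358903-27358931, had 3745 and 3630 reads, a ratio of 1.19 (1.14 to 1.25). The sequences of the pseudogene Gm48368 and of D10Wsu102e begin with the same 10 bases, with 754 and 695 reads at chr12:62536825-62536852 for the first and 354 and 445 at chr10:83470968-83470996 for the second. Both had T-start partners at a place, with 265 and 97 reads in all, fewer than their own. The CT010467.1 sequence, at chr17:39847342-39847366, had 279 KO-named and 791 het-named reads, the widest gap of these 8, with a ratio of 0.407 (0.354 to 0.467). It lay on the plus strand, antisense to this entry as annotated and sense to the overlapping Gm42418. Whether the annotated strand of the entry is that of the rRNA was not tested. The sequence of mt-Rnr2, the mitochondrial large rRNA, had 1006 and 1330 reads at chrM:1094-1117. The sequence of mt-Tm, the mitochondrial methionine tRNA, had 3604 and 4878 at chrM:3845-3875. The Snord2 sequence, from a box C/D small nucleolar RNA, had 4121 and 3444 at chr16:23108989-23109017. The last 3 are stretches of known RNAs outside the piRNA pathway that carry the same letters at bases 1 and 10.

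Of the 92 members in miRNA genes, 45 had over 10 places, which lie in repeated gene models annotated as miRNA. Another 14, with 45.2% of the reads of the class, began with a mature sequence in RefSeq's table for GRCm38.p6. miRNAs are silencing RNAs cut from hairpins and loaded on Argonaute proteins, and longer forms with extra 3′ bases enter the 24 to 32 nt range. The mature sequences of the most abundant and of one that shares its seed are given with bases 2 to 8, the seed, in capitals.

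mmu-miR-449c-5p: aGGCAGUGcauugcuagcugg
mmu-miR-34b-5p: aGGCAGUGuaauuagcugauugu
mmu-miR-425-5p: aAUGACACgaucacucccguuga

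The miR-449c-5p forms, 3 members of 24 to 26 nt, had 8026 KO-named and 7460 het-named reads, a ratio of 1.24 (1.20 to 1.28). The single miR-34b-5p form of 24 nt had 51 and 27 reads, a ratio of 2.18 (1.34 to 3.62). The 2 miR-425-5p forms had 2781 and 2716 reads, a ratio of 1.18 (1.12 to 1.25). A 24-nt member in Mir34c, at chr9:51103075-51103098, had 6078 and 5154 reads. The miR-34 and miR-449 families, which share this seed, are known to be abundant in meiotic and postmeiotic germ cells.

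Most members had some T-start sequence with complementary first 10 bases, but so did other stretches of the same length. A T-start partner of 24 to 32 nt with at least 1 read was found by sequence for 7498 members, or 96.7%, and other 10-base windows of the members that end in A had one in 95.2% to 99.1% of cases. At this depth a partner of 1 read does not set the first 10 bases apart. With at least 10 reads asked of the partner, 4561 members or 58.9% had one, beside 44.8% to 59.2% of other windows. With at least 50 reads, 2817 members or 36.3% had a partner, beside 19.1% to 32.6% of the other windows, whose median was 27.3%. Windows of the A- or C-start sequences without A at base 10 had a median of 20.2%. At 100 reads the share was 27.5%, against 11.9% to 20.8%, and at 500 reads 911 members or 11.8% had a partner, against 3.03% to 8.47%. The first 10 bases thus exceeded every other window of the members once the partner had at least 50 reads.

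The share with a partner of at least 50 reads by sequence differed between sources. It was 8.70% of the 207 rRNA members and 33.6% of the members without a place. The placed classes other than rRNA were higher. Of these, 43.5% of members in miRNA genes, 46.0% of long noncoding RNA, 47.0% of protein-coding antisense, 49.3% of protein-coding sense, 57.1% of tRNA (4 of 7), 59.2% of pseudogene and 66.0% of other small RNA gene members had one, and 60.7% of the 61 in the remaining gene types. The shorter members had fewer, with 22.3% at 24 nt and 40.8% at 30 nt. A- and C-starts had 34.9% and 37.9%.

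At annotated places the 10-nt overlap stood apart from other overlaps. Of the 1909 placed members, 858 or 44.9% had a T-start sequence on the opposite strand whose 5′ end overlapped theirs by 10 nt. The same count was made at overlaps of 1 to 24 nt for placed A- or C-start sequences with A at the matching base, so that a T-start partner was possible. At the other overlaps the median was 21.2%, with 22.8% at 9 nt, and the highest was 378 of 1261, at 13 nt. With partners of at least 10 reads 28.7% of members had one at 10 nt, against at most 14.2% elsewhere, and with partners of at least 50 reads 323 members or 16.9%, against at most 8.47%. With each shared start counted once the share was 45.5%. Repeated places add candidates: of the 1114 members with 1 place, 178 or 16.0% had a partner at 10 nt, against at most 10.4% at another overlap. With partners of at least 50 reads these were 4.49% against at most 1.56%.

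The pairs were unevenly spread over the sources. A partner at 10 nt was found for 80.8% of protein-coding antisense members, 62.7% of protein-coding sense members, 56.3% of pseudogene members, 54.7% of other small RNA gene members, 47.8% of members in miRNA genes and 25.8% of long noncoding RNA members. With partners of at least 50 reads, other small RNA genes (47.2%) and miRNA genes (30.4%) had the highest shares, and 29 of the 53 and 45 of the 92 members had over 10 places. A partner of any read count was found for 3 of the 207 rRNA members, or 1.45%. In D10Wsu102e 107 of 109 antisense and 89 of 96 sense members had one, and in Gm17167 95 of 99 sense members. In Gm49794 46 of 99 sense members had one, but 1 had a partner with at least 50 reads. In Lars2 8 of 107 had one, none with at least 50 reads. Most of these members of D10Wsu102e and Gm17167 had several places, while 73 of the 99 in Gm49794 had 1. All 29 antisense members of Gm21269 had a partner, and 14 of the 29 had 1 place.

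Reads of the sides of a pair can be set side by side only as a description, since members needed at least 50 reads and partners 1. Summed over its partners at 10 nt, the T-start side had more reads than the member for 311 of 858 members, or 36.2%, and the median partner total was 0.410 times the reads of the member. Among the 323 members with a partner of at least 50 reads the T-start side was higher for 279, or 86.4%. The read minimum of the members lowers the first share and that of the partners raises the second. Both sides of the pair were present in both tables for 725 of 858 members, or 84.5%.

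T-start sequences also lay close beside many members on the same strand. A T-start sequence with at least 50 reads that overlapped the member exactly and began 1 to 5 nt before or after it was found for 5308 members, or 68.5%, against 73.5% of the A- or C-start sequences without A at base 10. This neighbour had more reads than the member in 81.7% of cases, with a median of 4.01 times its reads. Of members antisense to protein-coding genes 48.3% had such a neighbour, and of pseudogene members 42.3%, against 70.9% of members without a place.

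Between the tables, the median member was about level and a minority was much lower in the KO-named table. With 0.5 reads added to each count, the median log2 ratio was 0.02, beside 0.16 over all 179883 sequences, 0.19 for T-start sequences and -0.34 for A- or C-starts without A at base 10. A log2 ratio of -1 or less was seen for 1238 members, or 16.0%, where 5.28% of all sequences reached it. A log2 ratio of 1 or more was seen for 129 members, or 1.66%, where 1.93% of all sequences reached it. Scaled to the T-start reads of 24 to 32 nt in place of all reads, the median of all sequences shifted by -0.18, that of the members was -0.16, and 1624 members were lower by 1 or more, where 7.39% of all sequences were, and 52 higher, where 0.862% were. Counted once per shared start of 20 bases, with the forms summed, 269 of 3334 starts of members were at -1 or less, or 8.07%, where 3.36% of all 68189 starts were, 1.08% of T-starts and 15.0% of A- or C-starts without A at base 10. By sequence and scaled to all reads, 25.6% of A- or C-start sequences without A at base 10 and 1.62% of T-start sequences were at -1 or less.

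Members in rRNA were 11.3% of those lower in the KO-named table and 2.67% of all members. Of the 1238, 998 or 80.6% had no place, near the 75.4% of all members, 140 lay in rRNA and 65 ran sense to protein-coding genes. They came from 394 starts and held 24.4% of the reads of the members. The 207 rRNA members had 12098 KO-named and 29603 het-named reads, a ratio of 0.472 (0.462 to 0.482), and 140 of the 207 were at -1 or less. The 107 Lars2 sense members had 11748 and 27333 reads, a ratio of 0.496 (0.485 to 0.507). Of these 107, 59 were at -1 or less, so this 1 gene held many of the low members in protein-coding genes. Long noncoding RNA members and protein-coding antisense members had ratios of 1.13 (1.12 to 1.14) and 1.13 (1.10 to 1.16), the same as the 1.13 of all T-start sequences, and scaled to T-start reads they were 0.998 (0.987 to 1.01) and 0.992 (0.965 to 1.02). Members in miRNA genes had a summed ratio of 1.08 (1.07 to 1.10), but their median log2 ratio was -0.29, 19 of the 92 were at -1 or less and 32 above 0. All of these 19 lay in Mir6236 or in the entries Gm23935, Gm24187, Gm24245 and Gm24270. None of the 19 began with a RefSeq mature sequence. Members without a place had a ratio of 0.745 (0.743 to 0.747).

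Low members were also short and seldom paired. At 24 nt 39.8% of members were at -1 or less, at 25 nt 27.8% and at 30 nt 9.51%. This fall with length was not particular to the members. At the same lengths the shares were 43.6%, 34.4% and 20.0% of A- or C-start sequences without A at base 10. Of T-start sequences they were 5.61%, 2.84% and 1.11%. Among members at -1 or less, 22.3% were of 24 or 25 nt, against 8.55% of the others. By sequence 10.5% of the low members had a T-start partner of at least 50 reads, against 41.3% of the others. Of the 858 members with a 10-nt partner at a place, 14 or 1.63% were at -1 or less. Another 20 or 2.33% were at 1 or more. For all sequences these shares were 5.28% and 1.93%, and for T-start sequences 1.62% and 2.02%, near those of the 858. The median log2 ratio of the 858 was 0.13. Without the 207 rRNA members the ratio of all reads of the members was 0.777 (0.775 to 0.779). The members left held 98.7% of the reads, so leaving out the rRNA class could move the ratio only little. The part of fragment length in the difference between the tables was not tested.

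The members with the most extreme ratios at a known place were few. The sequences are printed with bases 1 and 10 in capitals.

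Wdfy3 member: CactaactcAatgaaccatctaaggtctgt
Gm14244 member: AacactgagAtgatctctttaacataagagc
Gm21269 member: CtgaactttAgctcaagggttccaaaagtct

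The Wdfy3 sequence lies sense in the 3′ UTR of Wdfy3, a gene of selective autophagy, at chr5:101835654-101835683 on the minus strand. It had 2 KO-named and 205 het-named reads, a ratio of 0.0113 (0.00135 to 0.0412). Its forms of 31 and 32 nt were members too, with 1 and 169 reads and 2 and 110 reads, so all 3 forms of this 5′ end were low in the KO-named table, with 5 reads there and 484 het-named reads in all. The Gm14244 sequence, in an exon of this noncoding gene at chr2:127692460-127692490, had 24 and 337 reads, a ratio of 0.0822 (0.0519 to 0.124). Its forms of 32 and 29 nt had 2 and 149 and 3 and 60 reads. The Gm21269 sequence, sense at chr7:73825238-73825268, had 192 and 94 reads, a ratio of 2.36 (1.83 to 3.05). The other members chosen for the highest or lowest ratio with at least 200 reads had no place, and their log2 ratios were -2.07 to -2.26 on the low side and 1.24 to 1.69 on the high side.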

How the data were processed

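Per the labels, a gel cut of 15 to 40 nt was sequenced. The deposited counts are raw reads per distinct sequence, with no scaling. The sources used here name no tool for trimming or collapsing. The tables hold 54384974 and 62773871 reads, and were joined on the sequence. The members and lists were chosen with earlier results of these data known.

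Members, other A- or C-start sequences and T-start sequences were matched to GENCODE M21 transcripts (GRCm38) with 0 mismatches on both strands by a k-mer search (numpy 2.4.6 and pandas 2.3.3 under Python 3.11.15, with scipy 1.17.1 for intervals), and a place is a distinct 5′ position. Of several gene types at the places of a member, the first of a fixed order was its class. Partners by sequence share the reverse complement of the first 10 bases. Partners at a place lie on the opposite strand of the transcript, with up to 22 bases upstream of the member in the same transcript. Neighbours overlap the member by at least 18 bases. Per gene, a member with several places counted in full for each gene. RPM refers to all reads of a table, and 0.5 reads were added for log2 ratios alone. Shares of reads and ratios carry exact Clopper-Pearson and conditional binomial intervals at 95%, which depth narrows but which hold no variation between animals.

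The search, pairing and intervals were tested on simulated data. Named members are the 10 with most reads, up to 5 highest and 5 lowest log2 ratios past 1 in size with at least 200 reads, the 10 with most partner reads and 2 per class. Named genes are the 15 with most members and the 10 with most member reads. The printed pairs with 1 place and the further length forms were chosen after their values were seen. Members without a place, with over 15 places or on chromosome 18 (200 members) are not printed. Alternatives were other read minimums, scalings, lengths, partner minimums, 1 mismatch, 1 place alone and no small RNA classes.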

Additional observations from a re-analysis of the deposited data

How the results depend on the processing

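No paired analysis was possible because there was 1 library per table. Over 43 alternatives to 8 results, 11 left the value within its interval or within 1.5 times a count, 27 moved it and 5 changed the sign of the median log2 ratio. That median, 0.017, became -0.067, -0.16 and -0.26 when scaled to reads of 24 to 32 nt, T-start reads and miRNA hairpin reads, and -0.043 and -0.16 at minimums of 100 and 200 reads. It was 0.052 at 20 reads, 0.042 without small RNA classes and 0.13 with 1 value per start. Read minimums of 20, 100 and 200 gave 17689, 4155 and 2204 members. The members past 1 in size of log2 ratio, 1367, were 883 and 575 at 100 and 200 reads. The share with A at base 10 was 36.4%, 33.8% and 32.5% at 20, 100 and 200 reads, 36.8% over reads and 37.0% with 1 sequence per start. Placement was 30.2% with 1 mismatch, 14.0% over reads and 14.4% with 1 place alone. Partners by sequence were 96.7%, 58.9%, 27.5% and 11.8% at partner minimums of 1, 10, 100 and 500 reads, and 34.4% for members of at least 200 reads. Partners at a place were 28.7% and 16.9% at minimums of 10 and 50 reads, 16.0% with 1 place alone and 50.5% without small RNA classes. Neighbours were 80.8% and 38.7% at 10 and 500 reads. The alternatives of 1 form per start, and places without small RNA classes, were chosen after seeing the data. The 5841 members without a place could have no partner counted at a place.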

Other observations

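The share of low members grew with abundance. Of members with at least 1000 reads 31.3% had a log2 ratio of -1 or less, beside 8.33% of all sequences with as many reads, and 2 of the 460 were at 1 or more. With the forms of each start summed, the median log2 ratio over the 3334 starts was 0.13, beside 0.19 over all starts of 24 to 32 nt sequences.

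The low 5′ end in Gm14244 lay among starts that were not low in the KO-named table. Its 3 members together had 29 KO-named and 546 het-named reads, and all 22 forms of 24 to 32 nt with this start had 35 and 633. Within 50 nt on the same strand lay 7 other A-, C- or T-starts, counted over 18 sequences with at least 50 reads each. They had 3085 and 3021 reads, and their log2 ratios ran from -0.12 to 1.06. The highest of these, 15 nt upstream, had 33 and 18 reads, a ratio of 2.12 (1.16 to 3.99). The nearest of them began 5 nt upstream and had 965 and 977 reads. At the Wdfy3 5′ end all 23 forms had 5 KO-named and 594 het-named reads. No other A-, C- or T-start sequence with at least 50 reads had a place within 50 nt on that strand. G-start sequences were not matched to transcripts, so they are missing around both ends. What sets these 2 ends apart was not tested.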
